A study of Mus musculus with 15 samples.

Results

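The comparison is between LSZ2 and LSZ4, both lines of mouse non-small cell lung cancer cells, while each carried a short hairpin RNA against Siva. Its members are 8 of the 15 arrays of the series, chosen by the line and hairpin in their labels: 4 arrays of LSZ2 and 4 of LSZ4, each line with 2 arrays of shSiva1 and 2 of shSiva2. The other 7 arrays carried control hairpins, with 1 array of LSZ2 and 2 of LSZ4 for shGFP and 2 of each line for shLacZ. Per the labels, both Siva hairpins were in the vector pLKO TRC2.0, shGFP was in pLKO.1 and shLacZ in LL37, and all were delivered by virus made in 293T cells. Cells with a Siva hairpin or shGFP were selected in puromycin for 3 days, shLacZ cells were not, and all were harvested 2 days after plating for RNA collection. The labels give neither the genotype of the tumours nor the number of separate infections, so the p-values measure the spread between these arrays, which may be technical. RNA was read on Agilent 1-colour arrays, and 21841 autosomal genes of 22908 genes tested are described here. Genes of chromosomes X and Y were fitted with the rest and are not described.

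Siva is a target gene of the tumour suppressor p53, and its protein is known for a part in apoptosis. Cell lines from separate tumours keep stable differences in expression, which come from the lineage programme of the tumour cells and from the mutations and copy number changes they carry. In lung epithelium the transcription factor Nkx2-1 holds the alveolar programme, and in mouse lung adenocarcinoma its loss is known to go with stomach and gut genes, such as those for trefoil factors and villin. The question taken up here is which differences between the lines were present while both had a Siva hairpin.

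Signal and target checks came first. The 75th percentile of the processed signal was 869 ± 66.6 intensity units in the 4 LSZ2 arrays and 670 ± 203 in the 4 LSZ4 arrays (SD, n = 4 each; two-sided exact permutation p = 0.143, where 0.0286 is the smallest p that 4 against 4 allows). The share of spots well above background was 56.9% ± 2.6 in LSZ2 and 53.6% ± 3.1 in LSZ4 (SD, n = 4 each; exact permutation p = 0.171), and 0 spots were saturated. All 8 arrays lay on 1 slide, LSZ2 in columns 1 and 2 and LSZ4 in columns 3 and 4, so line and position on the slide cannot be told apart. The 7 control arrays lay on another slide in the same layout, LSZ2 in columns 1 and 2 and LSZ4 in columns 3 and 4. Siva1, the target, had log2 levels of 2.73, 3.03, 3.59 and 3.46 in LSZ2 and 2.30, 3.15, 3.45 and 4.09 in LSZ4. Here and below a log2 level is the log2 signal less the 75th percentile of its array, and the values of a line are given with the shSiva1 pair before the shSiva2 pair. The lines overlapped for Siva1, with a difference of -0.05 (LSZ2 minus LSZ4, standard error [SE] 0.24, limma adjusted p = 0.907), and its sign turned with the scaling. In the control arrays Siva1 was between 5.27 and 5.58 in LSZ2 and between 5.27 and 6.49 in LSZ4.

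Epithelial markers were present in both lines. All 6 epithelial markers checked (Cdh1, Epcam, Krt8, Krt18, Krt19 and Cldn7) were well above background on all 8 arrays. Their summed linear level, in units of the array's 75th percentile, ran from 1124 to 1353 in LSZ2 and from 1138 to 2268 in LSZ4. Of 6 alveolar and airway markers, Nkx2-1 and Sftpc were above background on none of the 8 arrays and Sftpd was on all of them. No fibroblast marker of 6 was above background on all 8, and Pdgfra, Pdgfrb, Dcn and Lum were on none. The summed fibroblast level was between 0.075 and 0.14 in LSZ2 and between 0.074 and 0.22 in LSZ4. The summed level of 6 immune markers, of which Cd3e and Csf1r were above background on all 8, ran from 1.67 to 2.13 in LSZ2 and from 1.87 to 4.09 in LSZ4. Of 5 endothelial markers, Pecam1 and Kdr were above background on all 8 arrays and Cdh5 and Tek on none. Vwf was above background on 4 LSZ2 arrays and 1 LSZ4 array. The summed endothelial level ran from 3.44 to 5.31 in LSZ2 and from 4.06 to 9.82 in LSZ4. The part of these sums in the results below was not tested.

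With a Siva hairpin in both lines, 901 autosomal genes differed between LSZ2 and LSZ4 at an adjusted p under 0.05, which is 4.13% of the 21841 tested (limma, line with hairpin as a covariate, Benjamini-Hochberg over all genes). Over all 22908 genes, X and Y included, 944 passed (4.12%). Of these, 445 were higher in LSZ2 (2.04% of the tested genes) and 456 higher in LSZ4 (2.09%). The difference was at least 2-fold for 362 of the former and 309 of the latter. Of the 901 genes, 57 were well above background on no LSZ4 array and 12 on no LSZ2 array. The sizes of those differences rest on signal near background. The median difference over all autosomal genes was -0.15 on the log2 scale, and quantile scaling of the arrays brought it to -0.03. For 1404 genes, 6.43% of those with all 8 values, the 4 LSZ2 and 4 LSZ4 values did not overlap. The count of 901 moved with single arrays: it was 5677 without the first LSZ4 shSiva1 array and 473 without the first LSZ2 shSiva1 array, 575 without the second LSZ4 shSiva1 array, 496 and 505 without each LSZ2 shSiva2 array, and between 634 and 805 without each of the other 3.

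The genes that stood highest in LSZ2 included a neural adhesion gene, an RNA-binding factor, a sensory channel and a growth factor of the BMP family. The 15 largest differences in this direction ran from 4.27 to 7.12 on the log2 scale, with SE between 0.16 and 0.43, and all 15 passed with each hairpin alone. LSZ4 was well above background on all 4 of its arrays for only 2 of the 15, and on none for 4. Most of these sizes therefore rest in part on LSZ4 signals near background. The 15 genes were chosen for their size among genes whose lines do not overlap and that were well above background on all 4 LSZ2 arrays, so their separation here is part of the choice. All 15 also passed in the fits that left out 1 array.

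**Figure D1:**
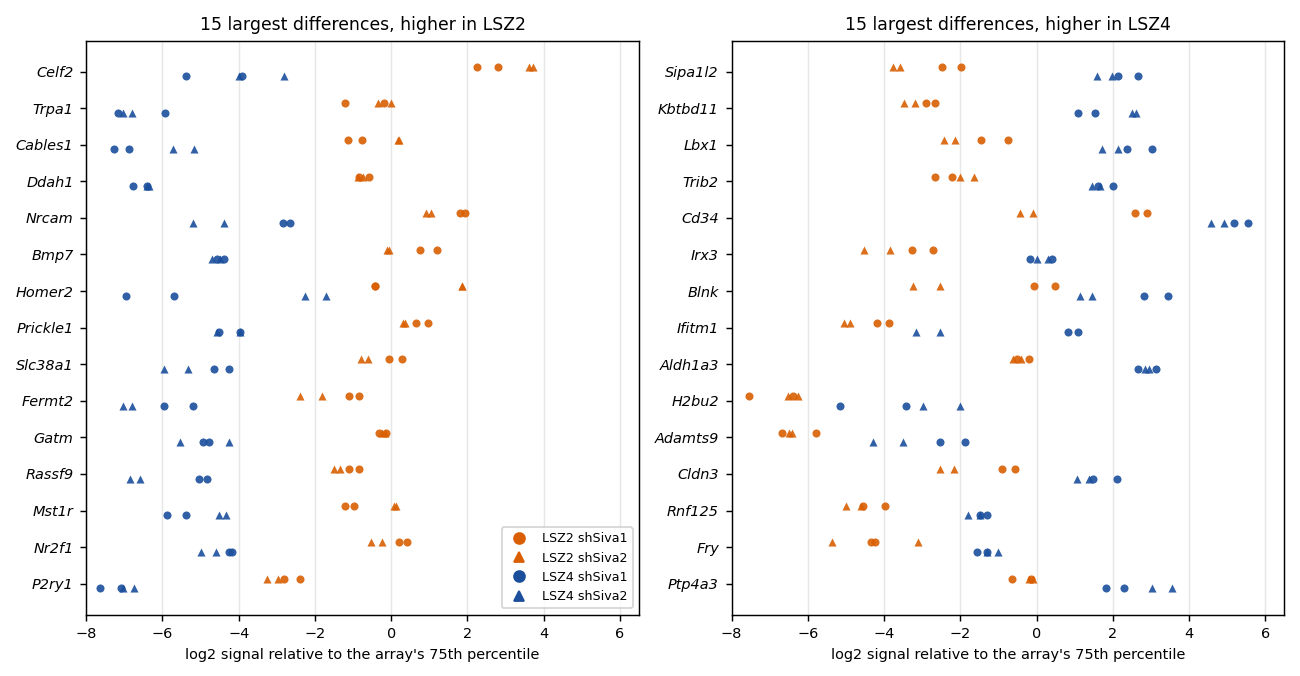
Each point is 1 array with a Siva hairpin, placed by its log2 level relative to the array's 75th percentile, for the 15 largest line differences in each direction (orange LSZ2, blue LSZ4, circles shSiva1, triangles shSiva2). The lines are apart for every gene shown, which the choice required, and in several genes, such as Homer2, Cd34 and Ifitm1, the hairpins also sit apart within a line.

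Celf2, which encodes an RNA-binding protein that regulates splicing, had the largest difference. Its levels were 2.80, 2.26, 3.62 and 3.71 in LSZ2 and -3.91, -5.37, -2.81 and -3.99 in LSZ4, and 3 of the 4 LSZ4 arrays were well above background. The difference was 7.12 (SE 0.35, limma adjusted p = 1.14e-05; probe at chr2:6465900-6465959, mm9). Every LSZ2 array lay far above every LSZ4 array, and 2 further Celf2 probes differed by 8.24 and 5.83. Those probes were above background on 4 and 5 of the 8 arrays, so their sizes rest on LSZ4 signals near background. Nrcam, a neuronal cell adhesion molecule of the immunoglobulin family, read 1.81, 1.94, 1.03 and 0.91 in LSZ2 and -2.66, -2.84, -4.38 and -5.20 in LSZ4. Its difference was 5.19 (SE 0.27, limma adjusted p = 1.41e-05; chr12:45699758-45699817). In both lines the shSiva1 arrays were the higher ones for Nrcam.

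Trpa1, an irritant-sensing cation channel, Cables1, which binds cyclin-dependent kinases, Ddah1, which breaks down the nitric oxide synthase inhibitor dimethylarginine, and P2ry1, a purinergic receptor, were well above background on all 4 LSZ2 arrays and on none of the LSZ4 arrays. Their differences are therefore bounds, with the LSZ2 mean set against a floor averaged over the LSZ4 arrays, which on each array was the dimmest signal well above background or the gene's value there where that was higher. Trpa1 was at least 24.9-fold higher in LSZ2, Cables1 at least 25.9-fold, Ddah1 at least 19.9-fold and P2ry1 at least 4.65-fold, with adjusted p of 1.71e-05, 2.16e-06, 8.47e-07 and 2.40e-05 in the limma fit. Of these 4, Ddah1 had the smallest SE, 0.16. It read -0.85, -0.59, -0.86 and -0.74 in LSZ2. In LSZ4 Ddah1 read -6.77, -6.40, -6.40 and -6.35, with a lower value on the first shSiva1 array than on the other three.

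Among developmental regulators, Bmp7, a bone morphogenetic protein, read 0.75, 1.19, -0.06 and -0.10 in LSZ2 and -4.56, -4.38, -4.71 and -4.49 in LSZ4. The difference was 4.98 (SE 0.22, limma adjusted p = 6.12e-06; chr2:172695203-172695262). Prickle1, a planar cell polarity protein, and Nr2f1, an orphan nuclear receptor, differed by 4.83 and 4.47 (limma adjusted p = 6.12e-06 and 2.18e-06). Homer2, a scaffold of glutamate receptor synapses, differed by 4.86 (SE 0.43, limma adjusted p = 2.44e-04), and both lines had more of it with shSiva2: its LSZ2 levels were -0.44, -0.44, 1.85 and 1.85 and its LSZ4 levels -5.70, -6.95, -2.26 and -1.70. The lines did not overlap in spite of this difference between hairpins.

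Membrane and metabolic genes made up most of the others. Slc38a1, a glutamine transporter, differed by 4.75, Gatm, the first enzyme of creatine synthesis, by 4.65, Rassf9, an endosomal protein, by 4.63 and Mst1r, the receptor tyrosine kinase for macrophage-stimulating protein, by 4.53. Fermt2, which encodes kindlin-2, an activator of integrins, read -0.85, -1.11, -1.82 and -2.40 in LSZ2 and -5.20, -5.95, -7.03 and -6.80 in LSZ4, a difference of 4.70 (SE 0.22, limma adjusted p = 7.76e-06). With control hairpins Fermt2 alone of these 15 did not pass (difference 0.74, limma adjusted p = 0.61). There it read -3.65, -4.04 and -4.15 in LSZ2 and -6.66, -6.64, -5.61 and -1.06 in LSZ4, so that 1 LSZ4 shLacZ array was above all LSZ2 arrays. The other 14 passed with control hairpins too, and all 15 had the same direction there.

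The 15 largest differences toward LSZ4 were smaller, between -2.94 and -5.04, and the lower line could be read on all 4 LSZ2 arrays for 11 of them. In the other direction the lower line could be read on all 4 LSZ4 arrays for only 2 of 15. The sizes in the 2 directions are therefore not a like-for-like contrast. The 15 genes higher in LSZ4 included developmental transcription factors, signalling adaptors and a claudin. All 15 were higher in LSZ4 with control hairpins as well, each past the threshold there, and all 15 passed without each array in turn. With shSiva1 alone 13 of the 15 passed and with shSiva2 alone all 15.

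Sipa1l2, a GTPase-activating protein for Rap, read -2.49, -1.98, -3.76 and -3.59 in LSZ2 and 2.14, 2.65, 1.57 and 1.99 in LSZ4. The difference was -5.04 (SE 0.24, limma adjusted p = 8.21e-06; chr8:127942014-127942073). Kbtbd11, a Kelch and BTB domain protein, differed by -4.99 (SE 0.34, limma adjusted p = 5.27e-05), while its other probe, above background on 1 of the 8 arrays, differed by only -0.43. The homeobox factors Lbx1 and Irx3, known from muscle, spinal cord and limb development, differed by -4.00 and -3.72 (limma adjusted p = 2.40e-05 and 1.42e-04). Irx3 read -3.26, -2.71, -4.53 and -3.83 in LSZ2 and -0.16, 0.40, 0.01 and 0.30 in LSZ4, a tight range in LSZ4 and a wider one in LSZ2.

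Trib2, a pseudokinase that scaffolds protein degradation, read -2.68, -2.23, -1.65 and -2.02 in LSZ2 and 1.60, 1.99, 1.45 and 1.67 in LSZ4, a difference of -3.82 (SE 0.23, limma adjusted p = 2.50e-05). Cd34, a sialomucin of haematopoietic, endothelial and some epithelial stem cells, read 2.58, 2.89, -0.09 and -0.42 in LSZ2 and 5.17, 5.56, 4.57 and 4.92 in LSZ4, again a difference of -3.82 (SE 0.43, limma adjusted p = 0.00101). The LSZ2 levels of Cd34 fell into a higher shSiva1 pair and a lower shSiva2 pair, both below LSZ4. Blnk, an adaptor of B-cell receptor signalling, differed by -3.55, and Aldh1a3, which makes retinoic acid from retinal, by -3.34 with SD of 0.18 and 0.19 within the lines (n = 4 each).

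Ifitm1, an interferon-induced membrane protein, read -4.19, -3.86, -5.04 and -4.90 in LSZ2 and 0.81, 1.08, -3.16 and -2.54 in LSZ4, a difference of -3.55 (SE 0.50, limma adjusted p = 0.00409). In LSZ4 the shSiva1 arrays were far above the shSiva2 arrays. Cldn3, a tight junction protein, differed by -3.05, Rnf125, a ubiquitin ligase, by -3.02, Fry, a scaffold of cell shape, by -2.97, and Ptp4a3, a phosphatase, by -2.94 (limma adjusted p between 3.57e-05 and 0.0032). H2bu2, a histone gene, and Adamts9, a matrix protease, were well above background on no LSZ2 array and were at least 4.59-fold and 5.82-fold higher in LSZ4 (limma adjusted p = 0.00336 and 8.14e-04). Histone genes have near-identical copies, which a probe of this kind may not separate.

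Start-site sequences are shown for 2 leading genes of each direction, since their transcripts were among those that differed most. Each is the 250 bases before the start of transcription, 5′ to 3′, from RefSeq on GRCm38.p6, a later build than the mm9 of the probe positions. Capitals mark CG, the dinucleotide that carries DNA methylation, which reads the same on both strands.
Ddah1, chr3:145758442-145758691, plus strand, 17 CG: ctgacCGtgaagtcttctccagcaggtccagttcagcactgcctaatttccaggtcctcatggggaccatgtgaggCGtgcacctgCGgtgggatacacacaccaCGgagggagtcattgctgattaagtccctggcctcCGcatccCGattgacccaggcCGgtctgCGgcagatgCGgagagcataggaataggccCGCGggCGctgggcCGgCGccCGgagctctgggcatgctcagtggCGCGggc
Nrcam, chr12:44328635-44328884, plus strand, 25 CG: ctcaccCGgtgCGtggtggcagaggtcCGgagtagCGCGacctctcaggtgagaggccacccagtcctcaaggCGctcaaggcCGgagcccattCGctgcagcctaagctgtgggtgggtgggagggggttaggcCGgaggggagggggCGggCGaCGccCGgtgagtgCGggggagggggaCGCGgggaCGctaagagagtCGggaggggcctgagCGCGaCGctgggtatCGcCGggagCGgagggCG
Trib2, chr12:15816786-15817035, minus strand, 34 CG: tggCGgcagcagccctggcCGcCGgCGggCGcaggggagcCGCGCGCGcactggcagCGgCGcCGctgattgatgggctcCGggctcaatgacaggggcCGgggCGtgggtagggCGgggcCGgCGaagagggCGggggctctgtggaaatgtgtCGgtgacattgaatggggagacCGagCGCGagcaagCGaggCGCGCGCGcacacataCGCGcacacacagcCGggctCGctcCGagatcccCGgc
Cd34, chr1:194938571-194938820, plus strand, 6 CG: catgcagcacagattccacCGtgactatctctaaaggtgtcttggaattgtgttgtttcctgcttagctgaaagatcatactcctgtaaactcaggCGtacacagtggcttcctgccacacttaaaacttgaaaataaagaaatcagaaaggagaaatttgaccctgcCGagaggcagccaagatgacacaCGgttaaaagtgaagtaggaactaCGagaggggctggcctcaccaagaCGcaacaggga
Ddah1 and Nrcam, higher in LSZ2, hold 17 and 25 CG. Trib2, higher in LSZ4, holds 34, and Cd34, also higher in LSZ4, holds 6. Over the 10417 measured genes with such a window the median was 16 CG, and 72.0% had 10 or more. Of the called genes, only 72.6% of those higher in LSZ2 and 73.2% of those higher in LSZ4 had such a window, beside 79.1% of genes not called. A comparison of the called genes with the rest on this count is left out for that reason. No methylation was measured in this series.

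Pathway and lineage lists were read next, and they were written with earlier results of these data known. The share of their members that passed may therefore reflect that choice. Over 33 lists, 895 distinct autosomal members were measured and 119 of them passed, 13.3%, with 63 higher in LSZ2 and 56 higher in LSZ4, beside 4.13% over all autosomal genes. Each list is described by counts and by its median less the median of all genes. Over the named members of the lists and the 30 genes above, 84 of 144 that passed did so in all 8 fits that left out 1 array, and 60 missed the threshold in at least 1.

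**Figure D2:**
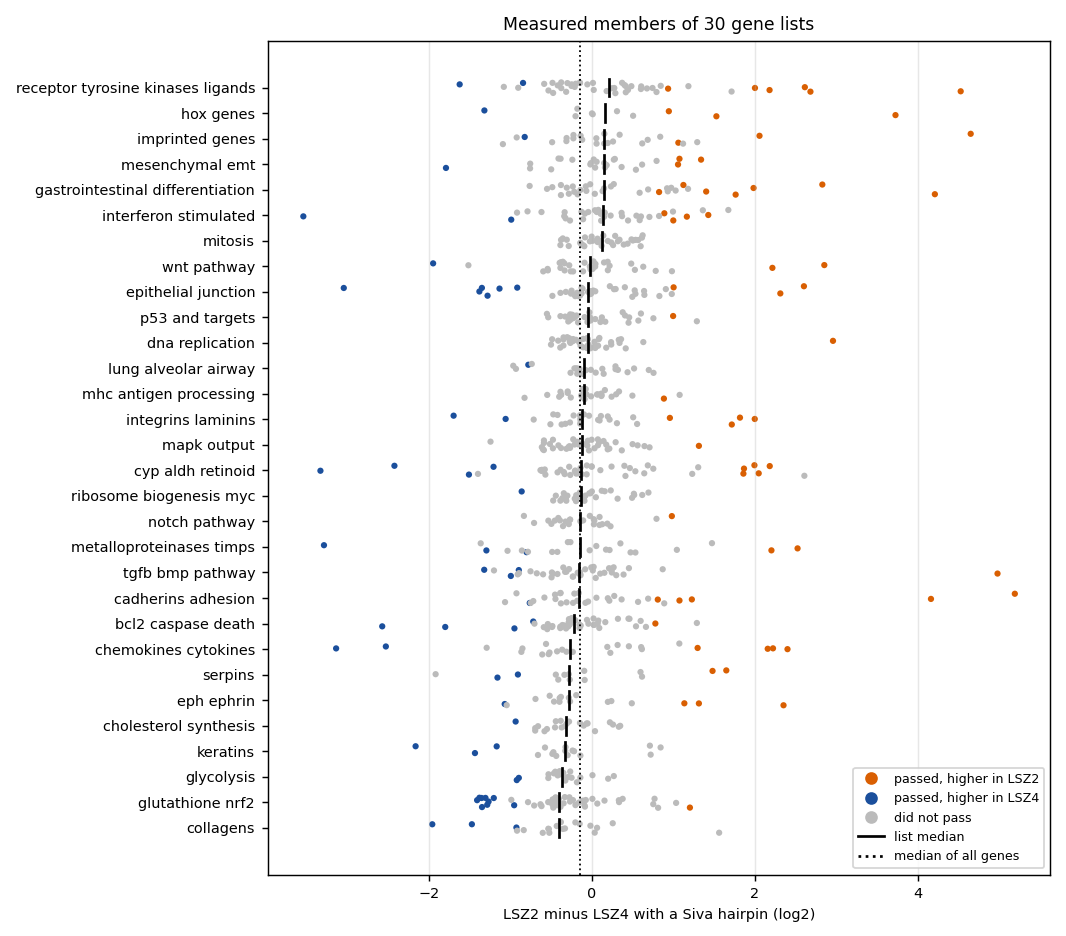
Each point is a measured member of a gene list, placed by its LSZ2 minus LSZ4 difference (log2) over the 8 arrays with a Siva hairpin, orange or blue where it passed at an adjusted p under 0.05. Black bars are list medians and the dotted line is the median of all autosomal genes, -0.15, and most members of most lists lie near it.

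Members of the gut differentiation list were higher in LSZ2 where they differed. This holds for the list as written. Outside it, the gut genes Krt20 and Anpep were higher in LSZ4 and Gpx2 higher in LSZ2, as given below. Of 33 measured, 7 were higher in LSZ2 and 0 in LSZ4, with a list median 0.30 above that of all genes. Vil1, which encodes the villin of brush borders, read 2.79, 3.17, 1.08 and 1.0 in LSZ2 and 1.31, 1.77, -0.42 and -0.23 in LSZ4, a difference of 1.40 (SE 0.17, limma adjusted p = 0.00172). The lines overlapped for Vil1 across hairpins, since both were higher with shSiva1, but not within either hairpin. Others among the 7 were the trefoil factor genes Tff1 (4.21) and Tff3 (1.98), Agr2, a disulfide isomerase needed for mucin (1.76), the transcription factor gene Foxa3 (1.12) and the annexin gene Anxa10 (0.82). Foxa3 turned sign under normexp background correction, and Foxa3, Agr2 and Anxa10 each missed the threshold in 3 or more of the fits without 1 array. The Tff1 probe is placed on chromosome 5 by the array's annotation while RefSeq has the gene on chromosome 17, and the other Tff1 probe, likewise placed on chromosome 5, differed by 4.28. With control hairpins the list had 9 genes higher in LSZ2 and 0 in LSZ4.

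Lung markers and cell-cycle genes mostly did not pass. Of 24 alveolar and airway genes 1 passed, Sox2, a transcription factor of the airway, at -0.78 (limma adjusted p = 0.0331), and it missed in 7 of the 8 fits without 1 array. Aqp5, an alveolar water channel, stood at -0.93 (limma adjusted p = 0.0501). Of 33 mitosis genes 0 passed in the limma fit, 2 had an unadjusted p under 0.05, and the list median was 0.27 above all genes. Of 40 DNA replication and G1/S genes only Ccnd2, the cyclin D2 gene, passed. Its levels were -2.27, -2.25, 1.22 and 0.97 in LSZ2 and -4.89, -5.11, -2.27 and -1.89 in LSZ4, a difference of 2.96 (SE 0.17, limma adjusted p = 2.40e-05). The lines overlapped for Ccnd2 over all arrays, since the LSZ4 shSiva2 arrays reached the LSZ2 shSiva1 arrays, but within each hairpin LSZ2 was higher.

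Receptor tyrosine kinases and their ligands leaned to LSZ2, with 6 of 46 higher in LSZ2, 2 higher in LSZ4 and a median 0.36 above all genes. Besides Mst1r, Flt1, a receptor for vascular endothelial growth factors, read 4.74, 5.03, 3.76 and 3.57 in LSZ2 and 2.87, 3.12, 1.66 and 1.44 in LSZ4, a difference of 2.00 (SE 0.16, limma adjusted p = 1.36e-04). Flt4, the lymphatic member of that family, and Mertk, a receptor of engulfing cells, were well above background on none of the LSZ4 arrays and were at least 2.06-fold and 1.71-fold higher in LSZ2, and both turned sign under normexp. The ligand gene Pdgfb and the insulin-like growth factor carrier Igfbp3 were higher in LSZ2 by 2.18 and 0.93. In the other direction stood Gas6, a ligand of the Axl family, at -1.63, and Pdgfa at -0.85. Of 17 Eph receptors and ephrins, Epha7, Epha4 and Epha1 were higher in LSZ2 by 2.35, 1.31 and 1.13 and the ephrin gene Efna2 higher in LSZ4 (-1.07), while the list median was 0.14 below all genes.

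Adhesion genes split between the lines. Of 41 epithelial and junction genes, 3 were higher in LSZ2 and 6 in LSZ4, with a median 0.10 above all genes. Epcam, an epithelial adhesion molecule, read -1.05, -0.75, -0.99 and -0.82 in LSZ2 and -3.41, -3.32, -3.88 and -3.41 in LSZ4, a difference of 2.60 (SE 0.17, limma adjusted p = 4.36e-05). St14, the membrane protease matriptase, followed at 2.31 and the desmosomal cadherin Dsg2 at 1.0. On the LSZ4 side stood Cldn3 and the matriptase inhibitor Spint1 (-1.28), the epithelial transcription factors Ehf (-1.38) and Grhl2 (-1.35), the desmosomal plakophilin Pkp1 (-1.14) and the protease Prss8 (-0.92). Of these 9 genes, 5 held in all 8 fits without 1 array.

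Of 31 cadherins and other adhesion molecules, 5 were higher in LSZ2 and 1 in LSZ4. Besides Nrcam, Pcdh7, a protocadherin, read -2.24, -2.29, -4.16 and -4.21 in LSZ2 and between -7.91 and -7.00 in LSZ4, where it was well above background on no array, and it was at least 3.61-fold higher in LSZ2 (limma adjusted p = 6.75e-04). Its other probe, above background on 3 of 8 arrays, differed by 0.11. The remaining members were Cdhr2 (1.23), Cdh2, the N-cadherin gene (1.07), and Nectin3 (0.81) toward LSZ2 and Cdh13 (-0.77) toward LSZ4. Among 28 integrins and laminins the collagen-binding subunits Itga1 (2.00) and Itga2 (1.82), Itgb6 (1.72), the epithelial partner of alpha v, and Lama3 (0.96) were higher in LSZ2, and Itga7 (-1.70) and the fibronectin receptor subunit Itga5 (-1.06) higher in LSZ4. Itga1 and Itga2 are neighbours on chromosome 13.

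Keratins and collagens went only toward LSZ4 among those that passed. Of 17 keratins 3 were higher in LSZ4: Krt6a (-2.17) and Krt17 (-1.44) of stratified and injured epithelium and Krt20 (-1.17) of gut epithelium. Krt6a read 0.75, 1.14, -2.40 and -2.39 in LSZ2 and 2.07, 2.88, 0.12 and 0.69 in LSZ4, so its lines overlapped across hairpins but not within either. Of 20 collagens Col6a2 (-1.96), Col6a1 (-1.48) and the basement membrane chain Col4a1 (-0.93) were higher in LSZ4, and the list median was 0.26 below all genes. All 3 collagens missed the threshold in at least 1 fit without 1 array, Col6a2 in only 1 (limma adjusted p = 0.0547 without the first LSZ2 shSiva1 array). Among 25 mesenchymal genes Snai2 (1.34) and Acta2 (1.06) were higher in LSZ2 together with Cdh2, and the matrix protein gene Tgfbi higher in LSZ4 (-1.79). Tgfbi passed in all 8 fits without 1 array, while Acta2 missed in 7, Cdh2 in 5 and Snai2 in 2.

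Of 49 measured glutathione and NRF2 genes, which clear electrophiles, 9 were higher in LSZ4, 1 was higher in LSZ2 and 39 did not pass. The list median was 0.26 below all genes, and 5 of the 10 that passed did so in all 8 fits without 1 array. Gstm2, a glutathione transferase, read 3.08, 3.57, 3.16 and 3.14 in LSZ2 and 4.25, 4.67, 4.39 and 4.78 in LSZ4, a difference of -1.29 (SE 0.19, limma adjusted p = 0.00514). The transferases Gstm3 (-1.41), Gstm1 (-1.35), Gstm4 (-1.31), Gstk1 (-1.27), Gstm6 (-1.21) and Mgst1 (-0.96), the quinone reductase Nqo1 (-1.38) and the carbonyl reductase Cbr1 (-1.36) made up the rest, and Gpx2, a gut glutathione peroxidase, was higher in LSZ2 (1.20). The Gstm genes are near-identical neighbours whose probes may cross-hybridise, and the Gstm1 probe is annotated to chromosome 5 while RefSeq places the gene on chromosome 3, so their separate values are uncertain. Nqo1 read -0.51, -0.25, 1.04 and 0.90 in LSZ2 and 0.07, 0.64, 2.86 and 3.15 in LSZ4, higher with shSiva2 in both lines. Nqo1 and Cbr1 missed the threshold in 6 of the 8 fits without 1 array.

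Retinoid and cytochrome P450 genes were divided, with 5 of 44 higher in LSZ2 and 4 in LSZ4. Toward LSZ2 were Cyp1a1 (2.18), Rbp4, the retinol carrier of plasma (2.05), Cyp2c66 (1.99), Cyp2c55 (1.87) and Aldh1a1 (1.86). Toward LSZ4 stood Aldh1a3, the cellular retinol-binding protein gene Rbp2 (-1.51) and Cyp2j6 (-1.21), among others. Thus the retinal dehydrogenase genes Aldh1a1 and Aldh1a3 were each the higher one in a different line.

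Chemokines, too, were divided: 4 of 24 cytokine genes were higher in LSZ2 and 2 in LSZ4. Ccl2 and Ccl7, neighbouring genes for monocyte-attracting chemokines, were the ones in LSZ4. Ccl2 read 2.00, 2.17, -1.99 and -1.99 in LSZ2 and 4.04, 3.31, 1.54 and 1.42 in LSZ4, a difference of -2.53 (SE 0.36, limma adjusted p = 0.00409), and Ccl7 differed by -3.14 (SE 0.22, limma adjusted p = 6.39e-05). Both were far higher with shSiva1 than with shSiva2 in each line, so the lines overlapped across hairpins. Toward LSZ2 were Il33, an epithelial alarmin (2.16), Csf2, the gene for GM-CSF (1.30), and Ccl9 and Cxcl3, at least 2.06-fold and 1.84-fold higher there, the latter pair turning sign under normexp. Of 37 interferon-stimulated genes the GTPases Irgm1 (1.16), Igtp (0.89) and Gbp2 (1.0) and the death-promoting gene Xaf1 (1.43) were higher in LSZ2 and Ifitm1 and Ifitm2 (-0.99) in LSZ4, with Gbp2 and Xaf1 turning sign under normexp. Of these 6 only Ifitm1 passed in all 8 fits without 1 array, and Irgm1 missed in 7. Of 32 antigen processing genes 1 passed, H2-DMb1 at 0.88, and it turned sign under normexp.

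Wnt, BMP and Hox genes followed. Of 34 Wnt genes, Wnt7a, a ligand, was higher in LSZ2 by 2.21 and Fzd6, a receptor, higher in LSZ4 (-1.95). Fzd3, another receptor, was well above background on all 4 LSZ2 and on none of the LSZ4 arrays, at least 1.84-fold higher in LSZ2. It turned sign under normexp. With control hairpins its difference had the other sign, -1.25 (limma adjusted p = 0.181). There it lay between -7.71 and -6.25 in LSZ2 and between -6.79 and -3.64 in LSZ4. Of 40 TGF-beta and BMP genes Bmp7 was higher in LSZ2, and Tgfb1 (-1.32), Bmp2 (-1.0) and the protease Bmp1 (-0.90) higher in LSZ4. Only 10 of 39 Hox genes were measured. Of them Hoxa3, at least 2.86-fold, Hoxc4 (1.53) and Hoxc6 (0.94) were higher in LSZ2 and Hoxb3 higher in LSZ4 (-1.32). Hoxc4, Hoxc6 and Hoxb3 passed in every fit without 1 array. Hoxa3 entered the test only through its 4 LSZ2 arrays with Siva hairpins, so its passing is no support. Hoxc4 turned sign under normexp and stood at -0.09 with control hairpins (limma adjusted p = 0.896).

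Death and p53 genes were listed because Siva is a p53 target. Of 43 genes of the Bcl-2 family, caspases and death signalling, 4 were higher in LSZ4 and 1 in LSZ2. Ripk3, the kinase of necroptosis, read 0.61, 0.96, 0.99 and 0.83 in LSZ2 and 2.72, 3.23, 3.66 and 4.09 in LSZ4, a difference of -2.58 (SE 0.22, limma adjusted p = 2.30e-04). It was the one that held in all 8 fits without 1 array, while the others included Bmf (-1.80), Casp6 (-0.72) and Gsdmc4 (0.78), which turned sign under normexp. Of 34 p53 genes and targets 1 passed, the sulfatase gene Sulf2 at 1.0 (limma adjusted p = 0.0478), and the death receptor gene Fas stood at 1.29 (limma adjusted p = 0.0536).

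Matrix proteases, serpins and imprinted genes had members on both sides, 5 of 22, 4 of 14 and 4 of 25. Among the matrix proteases Mmp13 (2.52) and Mmp3, at least 1.17-fold and turning sign under normexp, were higher in LSZ2, and Adamts9, Adam8 (-1.30) and Mmp28 (-0.80) in LSZ4. Serpinh1, the collagen chaperone (1.65), and Serpinb5 (1.48) were higher in LSZ2 and Serping1 (-1.16) and Serpinf1 (-0.91) in LSZ4. Imprinted genes in LSZ2 were Gatm, Mkrn3, at least 1.71-fold and turning sign under normexp, and Kcnq1 (1.06), with Cd81 in LSZ4 (-0.83). The glycolytic genes Pfkm (-0.92) and Aldoc (-0.90), the sterol regulator Srebf1 (-0.94) and the Myc antagonist Mxd4 (-0.86) were higher in LSZ4, 2 of 22, 1 of 22 and 1 of 33 in their lists, and all 4 missed in 6 of the 8 fits without 1 array. S100a8 (2.17), a calcium-binding protein of myeloid cells and inflamed epithelium, was the one of 9 immune list genes to pass. Dtx4 (0.98) was the one of 25 Notch genes, and Epha4 the one of 40 genes of MAPK output.

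The same line comparison with control hairpins used 7 arrays that share none with the 8 above. Line and slide column went together there too, so position is not separated from line in either arm. There 965 genes passed, 4.42% of those tested, with 557 higher in LSZ2 (2.55%) and 408 in LSZ4 (1.87%), and normexp put 35.3% rather than 57.7% of the passing genes on the LSZ2 side. Of the 901 genes that passed with Siva hairpins, 519 (57.6%) also passed in the same direction with control hairpins. These make up 53.8% of the control list, and 0 genes passed in opposite directions. Some named gene-list members that passed with Siva hairpins had the other sign with control hairpins and did not pass there. They were Fzd3 (-1.25), Cdh2 (-0.17), Hoxc4 (-0.09) and Lama3 (-0.02). Of the 901, 874 had the same sign with control hairpins, and of the 965, 940 had the same sign with Siva hairpins. The same-sign share of all autosomal genes is not given, so these counts have no base rate beside them. The median difference over all autosomal genes was negative in both arms, -0.15 with Siva and -0.28 with control hairpins. Across 21841 genes the differences had Pearson's r = 0.80, given as a description, since genes are not independent and all arrays of a comparison are shared. Among genes that passed with control hairpins, the Siva difference was at the median 0.64 of the control difference, and among those that passed with Siva hairpins, the control difference was 1.03 of the Siva difference. Each ratio has below it the values that chose its genes. The control count was 14668 without the first LSZ4 shLacZ array, 514 without the second, 430 without the first LSZ2 shLacZ array, 509 without the LSZ2 shGFP array and 568 without the first LSZ4 shGFP array. It was 602 with shLacZ arrays alone.

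**Figure D3:**
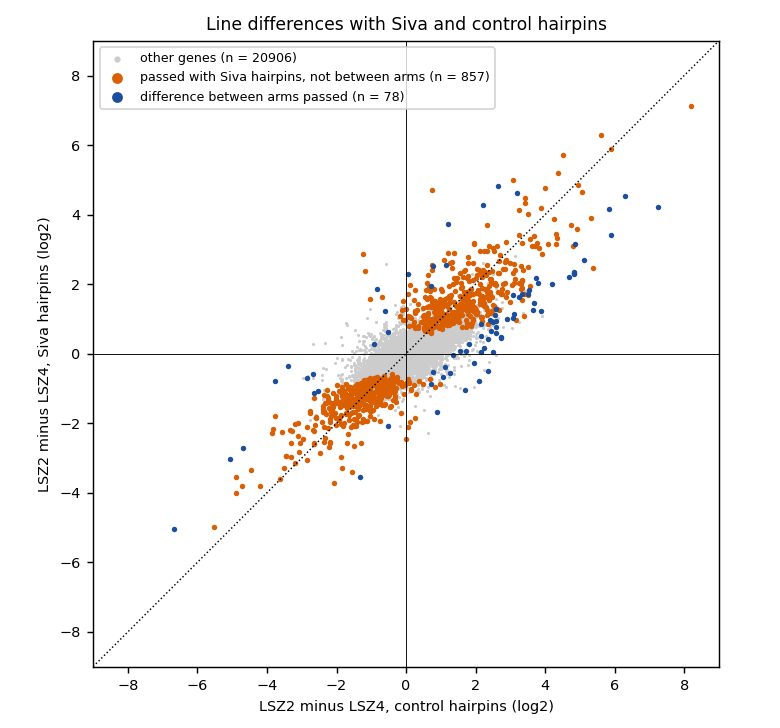
Each point is an autosomal gene, placed by its LSZ2 minus LSZ4 difference (log2) with control hairpins (horizontal) and with Siva hairpins (vertical), and the dotted line marks equal differences. The points form a band along that line (r = 0.80), and most of the 78 genes whose difference itself differed between the arms lie nearer to 0 on the Siva axis than on the control axis.

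For 78 genes (0.357% of 21833 tested) the line difference itself differed between Siva and control hairpins in the limma fit of all 15 arrays. It was smaller with Siva hairpins for 53 of them, larger for 10 and of opposite sign for 15. Since the control arrays were on another slide and in other vectors, slide, vector and Siva hairpin cannot be told apart here, and shLacZ cells were not selected. The count was between 6 and 15 in the fits without either LSZ4 shGFP array, either LSZ2 shLacZ array, the first LSZ2 shSiva1 array or either LSZ2 shSiva2 array, 35 without the second LSZ2 shSiva1 array, between 41 and 51 without each LSZ4 Siva array and 120 without the first LSZ4 shLacZ array. It was 3 against shGFP alone and 0 under normexp and with the replicate number as a block.

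The 5 genes with the most negative terms were Tff1, Cck, Car12, Fam20a and Thsd4. For Tff1, Car12, Fam20a and Thsd4 every LSZ4 array with a Siva hairpin was above every LSZ4 control array, and for Car12, Fam20a and Thsd4 the same held in LSZ2. Tff1 in LSZ4 read -1.26, -1.15, -3.06 and -2.07 with Siva hairpins and -4.46, -4.16, -5.90 and -5.83 with control hairpins, while LSZ2 stayed between 1.05 and 3.34 with Siva hairpins and between 1.83 and 2.14 with controls. Its line difference was 4.21 with Siva and 7.24 with control hairpins in the separate fits. The term for the change between arms in the fit of all 15 arrays, which estimates it anew, was -2.84 (SE 0.34, limma adjusted p = 0.0125). Thsd4, a matrix protein of the thrombospondin repeat family, had a difference of 2.20 in place of 4.68, with LSZ4 between -3.17 and -2.75 with Siva hairpins and between -7.16 and -5.79 with controls. Car12, a carbonic anhydrase, had 1.24 (limma adjusted p = 0.221) in place of 3.87. With Siva hairpins Car12 read 0.48, 0.76, -0.83 and -0.90 in LSZ2 and 1.13, 0.63, -3.52 and -3.69 in LSZ4. Its lines overlapped with shSiva1 and were apart with shSiva2. Fam20a, a secretory pathway pseudokinase, was higher in LSZ4 with Siva hairpins (-1.04, limma adjusted p = 0.0298) and stood at 1.70 with controls (limma adjusted p = 0.064). The former missed the threshold in 6 of the 8 fits without 1 array.

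Cck, the gut hormone cholecystokinin, read -1.71, -1.40, -5.52 and -5.72 in LSZ2 and -0.31, -0.59, -5.78 and -5.68 in LSZ4 with Siva hairpins. Both lines were high with shSiva1 and near background with shSiva2, and the line difference was -0.50 (limma adjusted p = 0.27) against 2.37 with control hairpins. In the other direction Prickle1 had a difference of 4.83 in place of 2.64. Prickle1 in LSZ2 read 0.64, 0.96, 0.31 and 0.37 with Siva hairpins and -1.69, -1.44 and -1.27 with controls, while in LSZ4 all 8 values lay between -4.64 and -3.74. Hoxa3 was well above background on all 4 LSZ2 arrays with Siva hairpins and on none of the other 11 arrays. It entered the test through those 4 arrays alone. Its line difference is a bound with Siva hairpins (at least 2.86-fold, as above) and has no measured size with control hairpins. Faxc was likewise above background on those 4 arrays alone, at least 1.15-fold higher in LSZ2 with Siva hairpins and without a measured size with controls, and turned sign under normexp. Plekhs1 and Prr5l had no passing line difference with Siva hairpins (-0.60 and 1.86), and each value averages unlike hairpins. Plekhs1 read -2.70, -2.53, -3.28 and -3.64 in LSZ2 and -3.20, -3.51, -1.59 and -1.43 in LSZ4. Its higher line was thus LSZ2 with shSiva1 and LSZ4 with shSiva2. Prr5l read -5.21, -4.42, -1.11 and -1.17 in LSZ2 and -4.96, -5.70, -4.65 and -4.06 in LSZ4. Its lines overlapped with shSiva1 and were apart with shSiva2. Plekhs1 was higher in LSZ4 with controls, at -2.68, and Prr5l stood at -0.84 there.

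**Figure D4:**
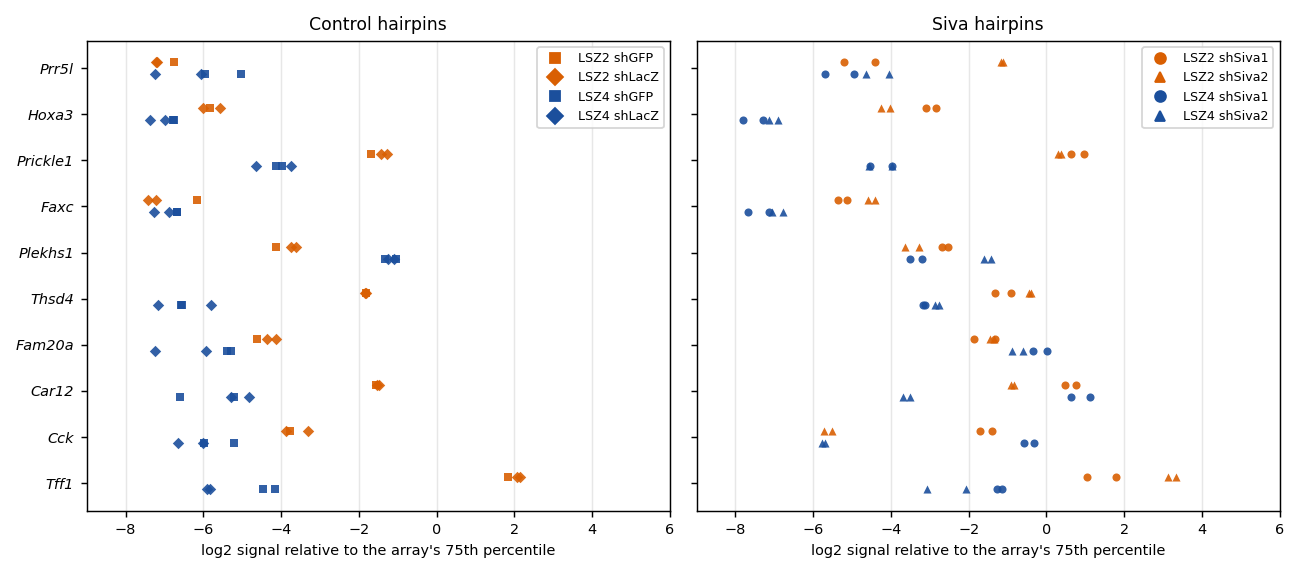
Each point is 1 array, placed by its log2 level relative to the array's 75th percentile, for the 10 genes with the largest difference between arms in the line difference (5 of each sign), with control hairpins on the left and Siva hairpins on the right. With Siva hairpins both lines lie wholly further right for Thsd4, Fam20a and Car12, LSZ4 (blue) but not LSZ2 for Tff1, and LSZ2 (orange) but not LSZ4 for Prickle1, Hoxa3, Faxc and Prr5l.

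Each Siva hairpin alone gave a line comparison of 2 against 2 arrays. With shSiva1 408 genes passed (1.87%), 269 higher in LSZ2 and 139 in LSZ4, and with shSiva2 643 (2.94%), 331 and 312. The test of a difference between these, line by hairpin, called 0 genes (0%) in the limma fit, with 1021 at an unadjusted p under 0.05 and a smallest adjusted p of 0.0526. Median scaling of the arrays gave 23 genes and the replicate block 57, and leaving out the first or second LSZ4 shSiva1 array gave 20 and 27. For Ifitm1 the line difference was -4.97 with shSiva1 and -2.12 with shSiva2, and for Tff1 it was 2.62 and 5.80. Both passed with each hairpin.

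By chromosome, the share of autosomal genes that passed ran from 2.93% on chromosome 17 to 6.77% on chromosome 15. On chromosome 15, 23 genes were higher in LSZ2 and 39 in LSZ4, and its median difference was 0.17 below that of all genes, the lowest of the 19. On chromosome 14, 10 were higher in LSZ2 and 37 in LSZ4, and on chromosome 8, 16 and 42, with medians 0.10 and 0.13 below all genes. Chromosomes 11 and 13 also had more genes higher in LSZ4, 44 against 26 and 26 against 11. By share, the split was widest toward LSZ2 on chromosomes 1, 6, 9, 12 and 19, with 36 against 18, 30 against 14, 31 against 17, 18 against 8 and 29 against 14. With control hairpins 17 of the 19 chromosome medians had the same sign. Over the 19 chromosomes the medians of the arms had Pearson's r = 0.83 and Spearman's rho = 0.82. This is a description over regions measured in the same lines and the same slide columns.

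**Figure D5:**
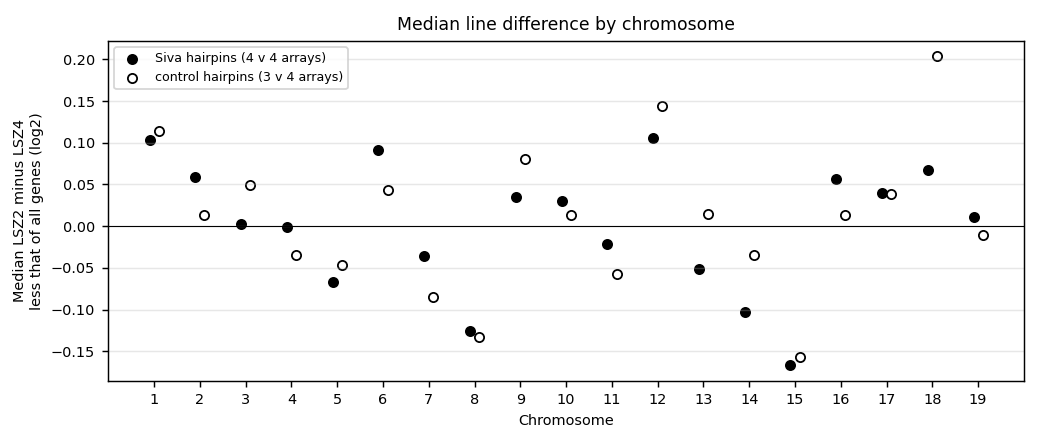
Each point is the median LSZ2 minus LSZ4 difference (log2) of the genes of 1 autosome less the median of all autosomal genes, filled for Siva hairpins and open for control hairpins. Chromosomes 8 and 15 lie lowest in both arms and 1 and 12 are among the highest in both.

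Base composition of the probes moved with the differences. In tertiles of probe GC content the median difference was 0.02 in the lowest, -0.15 in the middle and -0.29 in the highest, and the same order held with control hairpins (-0.06, -0.29 and -0.45). Its part in the chromosome medians and in the list medians was not tested. Copy number was not measured.

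Some passing genes lay next to each other. Of 733 passing genes with an ordinary symbol and a place in the order of measured genes, 122 (16.6%) had an adjacent gene that passed in the same direction and 25 (3.41%) one that passed in the opposite direction. These formed 65 same-direction and 13 opposite pairs. The shares of all 13208 ordered genes with such a neighbour are not given, so the 16.6% and 3.41% have no base rate beside them. Several same-direction pairs were related genes that share sequence, such as the Gstm genes, Krt6a with Krt6b and Ccl2 with Ccl7, and 1 pair, Pvrl3 and Nectin3, is 1 gene under an old and a new symbol. Others were not related in sequence, such as Rbp4 with the fatty acid receptor gene Ffar4 on chromosome 19 (2.05 and 2.71) and Ripk3 with the leukotriene receptor gene Ltb4r1 on chromosome 14 (-2.58 and -0.99).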

How the data were processed

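RNA of 15 samples was hybridised to Agilent 1-colour mouse arrays with 200 ng of RNA labelled with Cy3, per the labels. Per the file headers, the authors ran Feature Extraction 10.7.3.1, and the deposited scanner files give its processed intensity, with background subtracted and spatial trends removed. The authors' deposited table of values holds log2 values, which matched the log2 processed signal less each array's 75th percentile, centred on each probe's median, within 0.1 for 99.8% of values. Probe positions are on mm9, per the file headers.

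From the processed signal, control and outlier spots were left out and replicate spots averaged, and on the log2 scale each array's 75th percentile was subtracted. Of 55681 probes, 32188 were well above background on at least 4 of the 15 arrays and missing on at most 3. Symbols were updated through RefSeq for 26582 probes and 29099 kept the file's name. The probe with the highest mean stood for its gene, which gave 22908 genes, and 21841 autosomal ones are reported. limma 3.58.1 in R 4.3.3 fitted line with hairpin as a covariate on the 8 Siva arrays, the same on the 7 control arrays, the lines within each hairpin, and line by arm on all 15, with Benjamini-Hochberg adjustment over all genes tested and a threshold of 0.05. The number of arrays limits the precision.

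The members, gene lists and tests were chosen with earlier results of these data known. Genes were named by rule: Siva1, the 15 largest passing differences in each direction with lines that do not overlap and a signal well above background on all 4 arrays of the higher line, in each list the 2 members of smallest p and those that passed, and the 5 largest line by arm terms of each sign. The numbers after shGFP were read as replicates. Whether replicate numbers pair the arrays is not known, so the main fits had no replicate block. Correlations of replicate differences between lines were 0.69, -0.16 and 0.36 for shSiva1, shSiva2 and shLacZ. On simulated data the main comparison called 22 of 67 genes with a difference of 1 and 60 of 66 with a difference of 2. It called 1 other gene. For line by arm the calls were 7 of 67 and 37 of 66, with 4 other genes. These counts hold for the simulated arrays only. The real count moved between 473 and 5677 without 1 array, so the simulation gives no rate of false calls among the 901. Alternatives covered scaling, background correction, filters, probe choice, model terms and single arrays left out; array brightness as a covariate was added after seeing the data. A few listed genes are not reported here.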

Additional observations from a re-analysis of the deposited data

Results flagged for a closer look

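Of 328 groups of 4 arrays (each named gene in each line with a Siva hairpin), 9 held an array whose gap to the nearest of the other 3 passed Dixon's test for outliers. Chance gives about 5% of groups in this test, a larger share than was seen here. Each group holds both shSiva1 and shSiva2 arrays, for which that rate may not hold. The values are log2 levels. In LSZ2 the first shSiva1 array was low for Cd81 at 5.79, against 6.20 to 6.22 in the others, and for Ptp4a3 at -0.65, against -0.19 to -0.10. The second LSZ2 shSiva1 array was high for Gstm2 at 3.57, against 3.08 to 3.16, and for Pdgfa at 4.42, against 3.98 to 4.05. In LSZ4 the first shSiva1 array was low for Ddah1 at -6.77, against -6.40 to -6.35, where no array was well above background, and for Bmp2 at 1.25, against 1.68 to 1.76. The second LSZ4 shSiva1 array was high for Gstk1 at 1.32, against 0.75 to 0.83. The first LSZ4 shSiva2 array was low for Epcam at -3.88, against -3.41 to -3.32, and high for Hoxc6 at -1.13, against -1.28 to -1.26.

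For 10 genes the term for the change in line difference between arms, Siva less control, in the fit of all 15 arrays passed the test and was among the 5 largest of its sign. It was 2.77 for Prr5l, 2.55 for Hoxa3, 2.23 for Prickle1, 2.16 for Faxc and 2.12 for Plekhs1, and -2.84 for Tff1, -2.78 for Cck, -2.71 for Car12, -2.57 for Fam20a and -2.49 for Thsd4. The limma adjusted p ran from 0.0064 for Plekhs1 to 0.0434 for Prr5l. Hoxa3 and Faxc were well above background only on the 4 LSZ2 arrays with Siva hairpins, so their terms have no measured size. They entered the test through those 4 arrays alone, so their passing is no support for a difference between arms. Of the 14 fits that left out 1 array, Plekhs1 passed in all and Tff1 and Cck missed in 3. Car12 missed in 9, Prickle1 and Fam20a in 10 and Prr5l and Thsd4 in 12.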

How the results depend on the processing

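Of the 25 alternatives run for the main comparison, each kept the direction of all of the 30 leading genes it could fit; normexp left 23 of 30 past the threshold, no hairpin term 26, brightness as a covariate 27 and the test against a difference of 1 29. Of the 144 named genes that passed, 14 reversed under normexp, which lost 79 others: Faxc (-0.32), Gsdmc4 (-0.51), Ccl9 (-0.16), Cxcl3 (-0.11), Foxa3 (-0.37), Hoxc4 (-0.15), Mkrn3 (-0.32), Gbp2 (-0.31), Xaf1 (-0.026), Mmp3 (-0.42), H2-DMb1 (-0.071), Flt4 (-0.19), Mertk (-0.18) and Fzd3 (-0.15). Siva1, near 0, read 0.11 with quantile and 0.018 with median scaling, 0.19 with normexp, 0.49 with the brightness covariate, and 0.08, 0.02 and 0.12 without the second LSZ4 shSiva1, LSZ2 shSiva2 or LSZ4 shSiva2 array; its lowest value, without the first LSZ4 shSiva1 array, was -0.25.

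Counts of the main comparison moved from 901 to 206 with normexp, 589 with no filter on dim probes, 184 with no hairpin term, 2180 with line and hairpin group as a random block (whose estimated correlation was -0.28), 1543 with 1 mean per group and 143 in the test against a difference of 1. Without 1 array it ranged from 473 to 5677. The control comparison moved from 965 to 622 with no filter, 1577 with the replicate block, 13471 with shGFP alone and 602 with shLacZ alone, and ranged from 430 to 14668 without 1 array. Line by arm moved from 78 to 0 with normexp and with the replicate block, 46 with no filter, 31 for genes above background on all arrays, 3 with shGFP and 40 with shLacZ as the only control, and ranged from 6 to 120 without 1 array; it could not be fitted without the LSZ2 shGFP array. Line by hairpin moved from 0 to 23 with median scaling, 10 with trend and robust variance, 57 with the replicate block and 11 for genes above background on all arrays, and ranged from 0 to 27 without 1 array. With the replicate block the main comparison had 1045 genes, 842 of them among the 901. The causes of these moves were not tested. Brightness as a covariate put 64.0% of 719 passing genes on the LSZ2 side. Where a line was at background, signal limits the difference to a bound.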

Other observations

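Several genes outside the lists passed with large differences, and they were picked after their values were seen. Higher in LSZ2 were Slc35f2, a solute carrier (3.88), Kdf1, a regulator of keratinocyte differentiation (3.71), the calcium-activated chloride channel regulators Clca3a1 (3.44) and Clca3a2 (3.19), Pgap4, an enzyme of GPI anchors (3.19), S100a7a (3.09) and Ms4a8a (3.08). S100a7a, neighbour of S100a8 on chromosome 3, had SD of 0.17 in LSZ2 and 0.54 in LSZ4 (n = 4 each). Clca3a1 and Clca3a2 are related genes whose probes may share signal. Higher in LSZ4 were Traf1, an adaptor of tumour necrosis factor receptors (-2.38), Anpep, an aminopeptidase of brush borders (-2.11), and Hr, a corepressor of hair follicles (-2.10). For Traf1 the SD within a line was 2.73 in LSZ2 and 3.12 in LSZ4 (n = 4 each), larger than its line difference.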
